A study of Homo sapiens with 12 samples.

Results

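Drug-metabolizing enzymes were examined in spheroids of Caco-2 cells, a human colon carcinoma line long used as a model of the absorptive intestinal epithelium. The set was defined by name and not by measured values, but with earlier results of these data known. The set held all protein-coding rows named as cytochrome P450 (CYP) genes, with the sterol synthesis enzyme CYP51A1 left out. It also held those named as UDP-glucuronosyltransferase (UGT), glutathione S-transferase (GST, classes A, K, M, O, P, T and Z) and sulfotransferase (SULT) genes. It came to 105 of the 48162 genes in the deposited count table, made up of 53 CYP, 18 GST, 13 SULT and 21 UGT genes. One symbol, UGT2A1, stood for a pair of gene identifiers. Spheroids had grown in Matrigel for 5 days before exposure for 4 h. There were 4 groups of 3 RNA-seq libraries, given methotrexate alone, lactoferrin alone, methotrexate together with lactoferrin, or the carrier fluid as the control. Methotrexate is an antifolate that inhibits dihydrofolate reductase, and lactoferrin is an iron-binding milk protein. Doses are not stated in the labels. All libraries came from 1 cell line at 1 passage, and the labels do not say whether replicates were grown separately; the p-values then describe only the spread between these libraries, which may be technical.

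Enterocytes are the first cells to meet a swallowed drug. P450 enzymes oxidise it with electrons passed on by the reductase POR and by cytochrome b5, and the transferases then join it to glucuronic acid (UGT), glutathione (GST) or sulfate (SULT). The products leave through export pumps of the ABC family. Many of these genes are switched on through receptors that bind foreign compounds, among them AHR and the pregnane X receptor NR1I2, and their intestinal and hepatic forms depend on factors such as HNF4A and CDX2. Several members have other main substrates: CYP27A1 and CYP27B1 act on sterols and vitamin D, and UGT8 makes galactosylceramide in place of a glucuronide.

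The 3 methotrexate libraries stood apart from the other 9. They held 47459811 to 60591667 counts, against 18714054 to 23859094 in the others, and in them all 12 adipocyte markers and all 12 fibroblast markers were called higher than in control. The adipocyte markers summed to 19544 to 20345 CPM (a gene's reads scaled to a common library size) with methotrexate alone, 47.7 to 52.1 CPM with lactoferrin, 43.9 to 51.4 CPM with both agents and 50.4 to 53.2 CPM in control. The fibroblast markers summed to 9957 to 11420 CPM with methotrexate alone, 106 to 127.96 CPM with lactoferrin, 110 to 119 CPM with both agents and 106 to 121 CPM in control, where DPT and MFAP5 were at 0 counts. The 18 brush border markers summed to 2702 to 2738 CPM with methotrexate alone and 5029 to 5400 CPM in control, and the tight junction and adhesion markers summed to 3970 to 4353 CPM with methotrexate alone and 7852 to 8445 CPM in control. The 9 blood and immune markers summed to 33.8 to 41.8 CPM with methotrexate alone and 29.2 to 32.4 CPM in control, with CD68 and HBB at 0 counts in every library. The endothelial markers summed to 9.70 to 10.6 CPM with methotrexate alone against 1.93 to 2.68 CPM in control. Epithelial markers were abundant in control, with VIL1 at 828 ± 17.2 and EPCAM at 657 ± 24.0 CPM (SD, n = 3). The labels name Caco-2 spheroids alone and do not account for such levels of adipocyte and fibroblast markers, so the identity of the 3 libraries labelled methotrexate is in doubt. Every difference given below for methotrexate is a difference of these 3 libraries, and whether it is an effect of the drug cannot be told apart from what else sets them apart. The part of these other-cell markers and of depth in any member's change was not tested. In bulk RNA, fewer cells of a type and less RNA per cell cannot be told apart. Each result with the methotrexate libraries is therefore given on TMM scaling and, where it matters, after scaling on 33 brush border and tight junction genes (here called epithelial scaling), which moved the median log2 fold change of all genes for methotrexate against control to 0.93, against 0.03 on TMM.

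Control spheroids expressed a narrow part of the repertoire. Of the 105 members, 46 had at least 10 counts in each control library, 25 had none in control, and 10 had none in any of the 12 libraries. Members with at least 10 counts numbered 20 of 53 among CYP, 10 of 18 among GST, 8 of 13 among SULT and 8 of 21 among UGT genes. Levels of different genes are given as CPM per kilobase of the gene length in the deposited table.

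**Figure D1:**
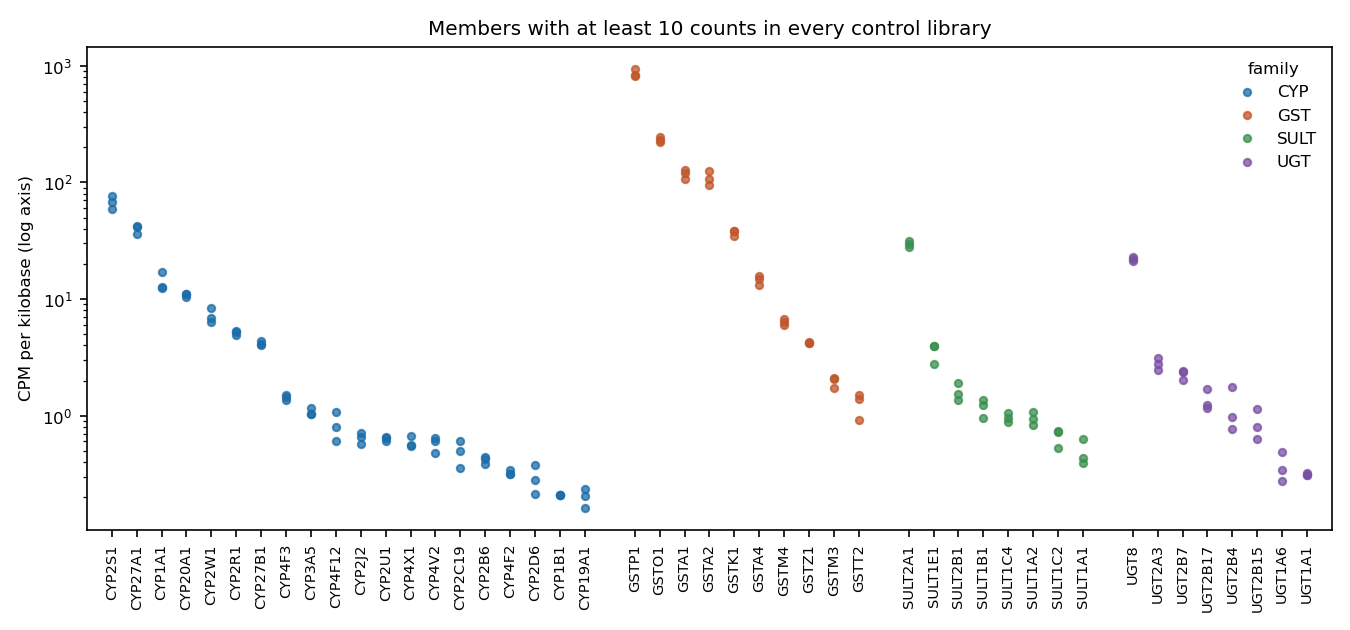
Level in each of the 3 control libraries (points, CPM per kilobase, log axis) of the 46 members with at least 10 counts in every control library, ordered within family. GSTP1 lay above all other members, and within the CYP genes CYP2S1 and CYP27A1 led.

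Glutathione transferases dominated. GSTP1, the pi-class enzyme abundant in many epithelial tumours, was at 818, 835 and 940 CPM per kilobase in the 3 control libraries. GSTO1, an omega-class enzyme with thioltransferase activity, followed at 233 ± 11.1 CPM per kilobase (mean ± SD, n = 3 here and below). The alpha-class enzymes GSTA1 and GSTA2, which reduce organic peroxides, stood at 119 ± 10.8 and 109 ± 14.5 CPM per kilobase, and their libraries overlapped. GSTK1, an organellar form, was at 37.1 ± 2.08 and GSTA4, which conjugates the lipid aldehyde hydroxynonenal, at 14.6 ± 1.34 CPM per kilobase. The mu-class GSTM1 and the theta-class GSTT1 were all but missing, with 1 and 0 counts over the 3 control libraries. Both are known to be deleted as whole genes in part of the human population; the genotype of these cells was not examined here.

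Among P450 genes the highest level belonged to CYP2S1, an enzyme of extrahepatic epithelia, at 68.2 ± 8.9 CPM per kilobase. CYP27A1, the mitochondrial sterol hydroxylase, came next at 40 ± 3.16, overlapping GSTK1 in its libraries, and CYP1A1, the classic target of the aryl hydrocarbon receptor, was at 14 ± 2.61, overlapping GSTA4. The main drug-oxidising P450 of the adult small intestine, CYP3A4, had 0 counts in the 3 control libraries, which allows a level of up to 0.0432 CPM over the group, whereas CYP3A5 was at 1.07 ± 0.0688 CPM per kilobase. CYP3A7, the fetal form, had 6 counts in control. The liver form CYP2D6 reached 0.289 ± 0.081 CPM per kilobase, and CYP2C18, CYP1A2, CYP2E1 and the vitamin D-degrading CYP24A1 had between 1 and 5 counts. These limits and all counting intervals cover counting error only.

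SULT2A1, which sulfates steroids and bile acids, led its family at 29.6 ± 1.56 CPM per kilobase, and SULT1E1, the oestrogen sulfotransferase, followed at 3.54 ± 0.685. The phenol sulfotransferase SULT1A1 was at 0.486 ± 0.128. UGT8 was the top UGT gene at 22.1 ± 0.991, and UGT2A3 and UGT2B7, which glucuronidate bile acids, steroids and opioids, were at 2.79 ± 0.339 and 2.27 ± 0.215. UGT1A1, the bilirubin-conjugating enzyme, was at 0.315 ± 0.00897 CPM per kilobase, while the gut forms UGT1A8 and UGT1A10 had 0 counts in all 12 libraries. Zero counts in this locus do not show absence of the transcript. The UGT1A genes lie nested on chromosome 2 (UGT1A8 spans 234526291 to 234681956 and UGT1A1 spans 234668894 to 234681945 in hg19) and share their last exons, so a read from those exons has no single gene. In GENCODE transcripts, 28.4% of the 100-base windows of UGT1A10, 41.5% of those of UGT1A6 and 51.2% of those of UGT1A1 were found in no other gene. For SULT1A3 and SULT1A4 the shares were 3.34% and 0.92%, and for GSTT2 and GSTT2B 21.4% and 21.5%. For CYP3A7 and CYP2C19 they were 35.0% and 47.2%, so the levels of these members are uncertain too.

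In the libraries labelled methotrexate alone, members of all 4 families differed from control, and the direction split by gene. Of 60 members that passed the filter on low counts, 19 were called higher than control, 31.7% against 35.4% of all 16733 genes tested, and 29 were called lower, 48.3% against 29.1% of all genes. The other 12 were not called. The median log2 fold change of the tested members was −0.63 against 0.03 for all genes, and it turned to 0.26, against 0.93 for all genes, on epithelial scaling. On that scaling 25 members were called higher, against a background of 74.3% of all genes, and 1 was called lower, against 0.741%. The falls thus depended on how the methotrexate libraries were scaled, while the large rises did not. The filter kept members that were high in at least 1 group, so these counts do not describe all 105. Members near 0 outside the methotrexate libraries passed it through those libraries, so their calls as higher there largely followed from the filter. The same holds for their calls as lower in the later comparisons with these libraries. The shares of all genes come from the same filter. Calls are edgeR quasi-likelihood tests with Benjamini-Hochberg adjusted p under 0.05 throughout.

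**Figure D2:**
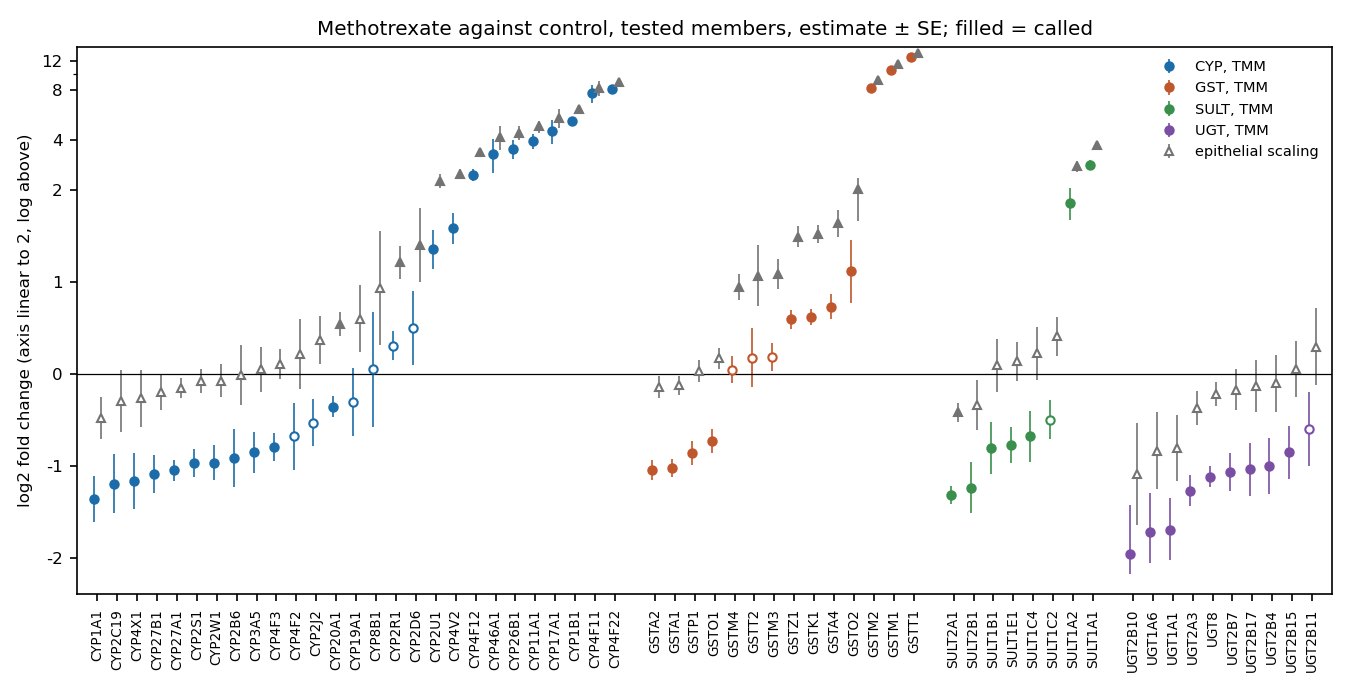
Log2 fold change of methotrexate against control (± SE) for tested members, by family, on TMM scaling (coloured circles) and epithelial scaling (grey triangles); filled symbols are called, and the axis is linear to 2 and logarithmic above. The falls of GSTP1, GSTO1 and CYP3A5 on TMM turned to values above 0 on epithelial scaling, none of the 9 called UGT falls stayed called, and SULT2A1 was the 1 member called lower on both. Fitted values of GSTT1, GSTM1 and CYP4F11 depend on the prior count because control had 0 or 1 counts.

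Of 28 P450 genes tested, 10 rose and 11 fell, or 35.7% and 39.3% against 35.4% and 29.1% of all genes. Among the 10, CYP4F22, CYP4F11, CYP11A1, CYP17A1 and CYP46A1 passed the filter through the methotrexate libraries, so the count of rises is no support by itself. The median was −0.33 on TMM and 0.57 on epithelial scaling, where 13 rose and 0 fell, against 74.3% and 0.741% of all genes. CYP1B1, which oxidises oestrogens and polycyclic hydrocarbons and is known from mesenchymal tissues, was at 38.2, 39.5 and 43.8 CPM with methotrexate alone and at 1.1, 1.08 and 1.1 CPM in control. That was a log2 fold change of 5.20 ± 0.22 (SE, adjusted p = 6.3e-12), with no overlap between the groups. CYP4F22, a hydroxylase of very long fatty acids known from skin, was at 14.4, 16.4 and 18.2 CPM with methotrexate alone, against 4 counts in all 3 control libraries, a log2 fold change of 8.04 ± 0.40. The fatty acid hydroxylases CYP4F12, CYP4V2 and CYP2U1, all with clear control levels, rose by 2.46 ± 0.20, 1.58 ± 0.16 and 1.35 ± 0.21 on the log2 scale. CYP4F12 was at 13.9, 16.4 and 14.4 CPM with methotrexate alone and 1.96, 3.49 and 2.62 CPM in control. The remaining rises were of scarce genes of steroid, retinoid and sterol metabolism and of CYP4F11. CYP11A1, the side-chain cleavage enzyme of steroid synthesis, CYP17A1, CYP26B1, which degrades retinoic acid, and CYP46A1, a cholesterol hydroxylase known from brain, rose by 3.91, 4.53, 3.52 and 3.26 on the log2 scale, and none of them passed a mean of 4.2 CPM with methotrexate. CYP4F11 had 122 counts with methotrexate alone and 0 in control, at least 19.8-fold higher against a floor of 3 counts over the control group. Among the 45 members that did not pass the filter, CYP7B1, an oxysterol hydroxylase, had 73 counts with methotrexate alone and 0 in the other 9 libraries. CYP2E1, which oxidises ethanol, had 66 counts with methotrexate alone and 1 in control, a ratio of 32.1 with a 95% counting interval of 5.57 to 1288. CYP3A4 had 6 counts and CYP1A2 18 counts in the deeper libraries with methotrexate alone, against 0 and 3 in control. For CYP3A4 that was 0.0391 CPM, below the control limit of 0.0432 CPM, so no rise was shown. CYP1A2 was at 0.126 CPM with methotrexate alone and 0.0479 CPM in control, where its 3 counts were all in replicate 1.

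The 5 P450 genes with the highest control levels per kilobase were all among those that fell on TMM. CYP1A1 was at 20.4, 14.3 and 9.48 CPM with methotrexate alone and at 33.4, 33.7 and 45.7 CPM in control, a log2 fold change of −1.36 ± 0.25 (edgeR adjusted p = 0.00019). Its highest methotrexate library lay below its lowest control library, and on epithelial scaling its change was −0.47 and not called. CYP27A1, CYP27B1, CYP2S1 and the tumour-associated CYP2W1 changed by −1.04 ± 0.12, −1.09 ± 0.21, −0.97 ± 0.15 and −0.96 ± 0.19 on the log2 scale. CYP3A5 was at 1.65, 1.69 and 2.58 CPM with methotrexate alone and 3.83, 3.45 and 3.42 CPM in control, a change of −0.85 ± 0.22 that was 0.05 ± 0.25 on epithelial scaling. CYP20A1, an orphan P450, was called in opposite directions, at −0.36 ± 0.11 on TMM (edgeR adjusted p = 0.012) and 0.54 ± 0.13 on epithelial scaling (edgeR adjusted p = 0.00099). The low CYP2C19, CYP4X1, CYP4F3 and CYP2B6 made up the rest, and the call of CYP2B6 was lost without methotrexate replicate 1, where its change was −0.66 (edgeR adjusted p = 0.075). CYP2R1, CYP2J2, CYP2D6, CYP4F2, CYP8B1 and CYP19A1 were not called on TMM, with log2 values between −0.68 and 0.50; CYP2R1 was called without methotrexate replicate 2, at 0.43 (edgeR adjusted p = 0.033).

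Of 10 UGT genes tested, 0 rose and 9 fell, or 0% and 90% against 35.4% and 29.1% of all genes. The median log2 fold change was −1.09. On epithelial scaling 0 were called, against 74.3% of all genes higher and 0.741% lower, and the median was −0.19. UGT8 was at 44.1, 40.7 and 40.3 CPM with methotrexate alone and 94.4, 86.3 and 89.7 CPM in control, a log2 fold change of −1.11 ± 0.11 (edgeR adjusted p = 3.1e-07). UGT2A3 was at 3.57, 3.53 and 3.23 CPM with methotrexate alone and 8.29, 9.28 and 7.26 CPM in control (−1.27 ± 0.17). UGT2B7 was at 2.39, 1.82 and 1.94 CPM against 4.55, 3.81 and 4.48 CPM in control (−1.06 ± 0.21). In all 3 genes every methotrexate library lay below every control library. The low UGT1A1 and UGT1A6 showed larger fitted falls, −1.69 ± 0.35 and −1.71 ± 0.42, resting on 47 and 38 counts with methotrexate alone and 74 and 62 in the shallower control libraries. UGT2B17 and UGT2B15, which inactivate androgens, changed by −1.03 ± 0.29 and −0.85 ± 0.29, and UGT2B4 and UGT2B10 by −0.999 ± 0.30 and −1.95 ± 0.53. The calls of UGT2B15 and UGT2B4 each failed without control replicate 1, where their log2 changes were −0.61 and −0.59 (edgeR adjusted p = 0.11 and 0.088), and that of UGT2B15 also without methotrexate replicate 1 (−0.76, edgeR adjusted p = 0.057). UGT2B11 was not called, at −0.59 ± 0.40. Summed over its 21 members, the family stood at 50.3 to 54.3 CPM with methotrexate alone, 105 to 118 CPM with lactoferrin, 97.8 to 135 CPM with both agents and 109 to 119 CPM in control. The brush border sum was lower in the same libraries, and its part in the UGT falls was not tested.

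Glutathione transferases moved in both directions within single classes. Of 14 tested, 7 rose and 4 fell, or 50% and 28.6% against 35.4% and 29.1% of all genes. Among the 7, GSTT1, GSTM1 and GSTM2 passed the filter through the methotrexate libraries, so the count of rises is no support by itself. On epithelial scaling 10 rose and 0 fell, against 74.3% and 0.741% of all genes. The median log2 fold change was 0.39 on TMM and 1.29 on epithelial scaling. The medians hold also with GSTT1 and GSTM1 placed at their lower bounds. GSTT1 was at 25.5, 30.9 and 29.2 CPM with methotrexate alone, a total of 4102 counts, against 0 counts in control, 1 with lactoferrin and 3 with both agents. It was at least 666-fold higher with methotrexate alone than in control, against a floor of 3 counts over the control group. GSTM1 was at 26.9, 30.6 and 27.2 CPM with methotrexate alone, 4042 counts against 1 in control, a ratio of 1968 with a 95% counting interval of 353 to 77768. GSTM2 was at 28.4, 35.4 and 31.8 CPM with methotrexate alone and at 0.0479, 0.0402 and 0.211 CPM in control, a log2 fold change of 8.24 ± 0.32 (edgeR adjusted p = 1.6e-12). These 3 genes were at the edge of detection in all 9 libraries without methotrexate as the sole agent. The spans of GSTM1 and GSTM2 overlap on chromosome 1 (110230436 to 110251661 and 110210644 to 110252173 in hg19), and 71.7% and 69.1% of their 100-base windows were found in no other gene, so the split of reads between them is uncertain. GSTT1 lies on chromosome 22 (24376133 to 24384680). Their neighbours GSTM3 and GSTM4 were not called on TMM, at 0.19 ± 0.15 and 0.05 ± 0.14 on the log2 scale, and were called higher on epithelial scaling, at 1.09 ± 0.16 and 0.94 ± 0.14.

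**Figure D3:**
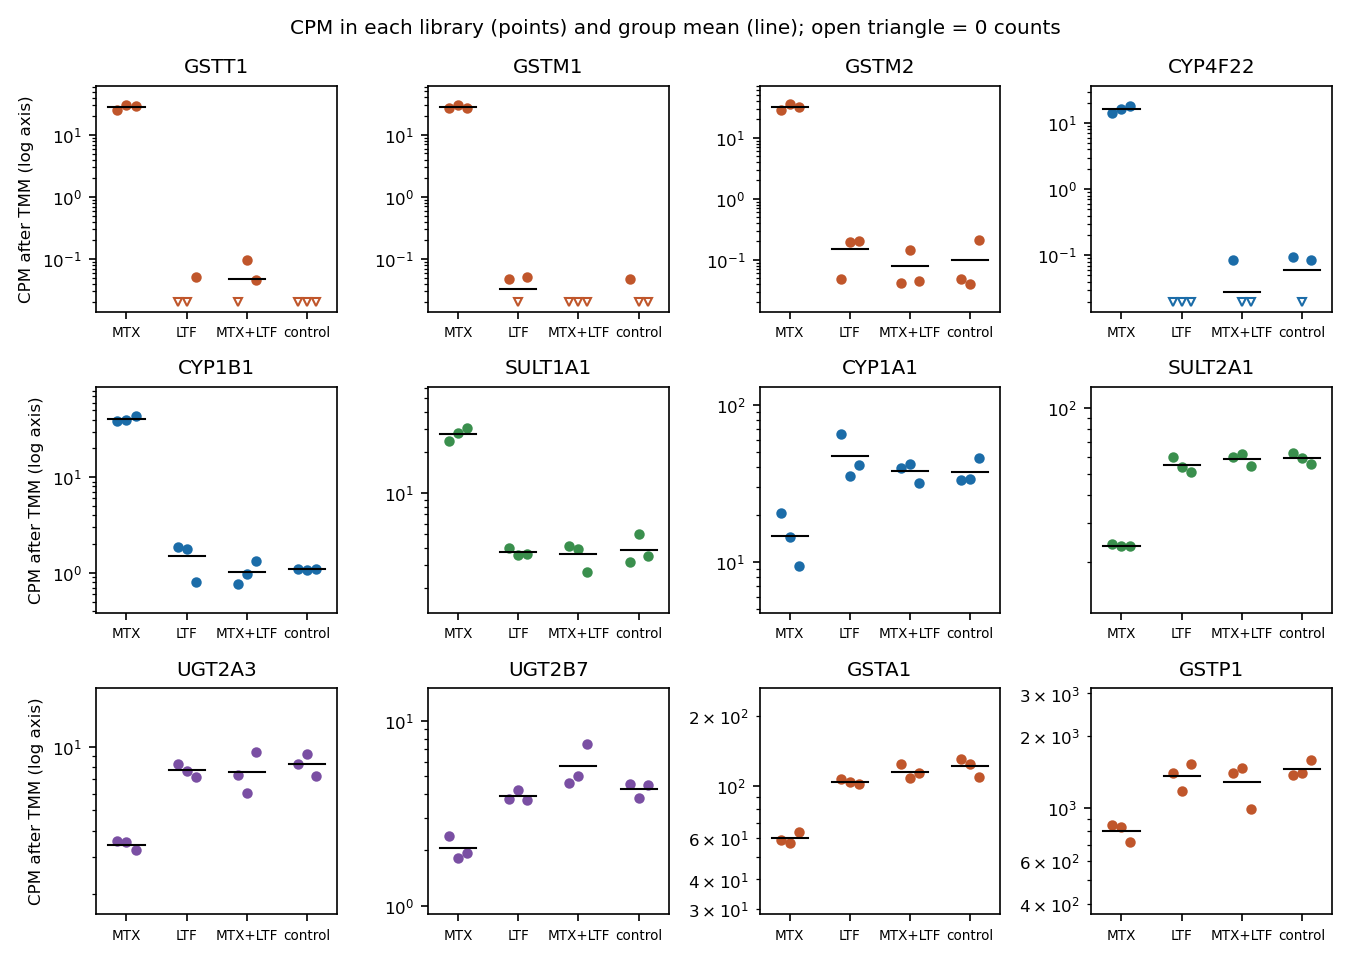
CPM after TMM scaling (log axis) of 12 members in each library, with group means as lines; triangles mark libraries with 0 counts, and means below the axis are not drawn. GSTT1, GSTM1, GSTM2, CYP4F22, CYP1B1 and SULT1A1 were highest in the 3 methotrexate libraries, and the other 6 genes were lowest there on this scaling. On epithelial scaling only SULT2A1 of those 6 was called lower than in control, and GSTP1 was not lower.

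Smaller rises were seen for GSTA4, at 36.2, 41.6 and 44.8 CPM with methotrexate alone and 26.6, 25.1 and 22.2 CPM in control (0.73 ± 0.14, edgeR adjusted p = 0.00025), and for GSTK1 (0.62 ± 0.09) and GSTZ1, the maleylacetoacetate isomerase of tyrosine breakdown (0.59 ± 0.10). GSTO2, at 41 counts in control, rose by 1.11 ± 0.34, a call lost without control replicate 2 (0.84, edgeR adjusted p = 0.055). The abundant forms fell on TMM. GSTP1 was at 850, 831 and 726 CPM with methotrexate alone and 1376, 1404 and 1581 CPM in control (−0.86 ± 0.13, edgeR adjusted p = 3.9e-05), and on epithelial scaling its change was 0.04 ± 0.12. GSTO1 changed by −0.73 ± 0.13 on TMM and 0.17 ± 0.12 on epithelial scaling. GSTA1 was at 58.9, 57 and 63.9 CPM with methotrexate alone and 131, 124 and 110 CPM in control (−1.02 ± 0.10, edgeR adjusted p = 1.3e-07), and GSTA2 changed by −1.04 ± 0.11. On epithelial scaling these were −0.12 ± 0.10 and −0.14 ± 0.12 and not called. Under either scaling GSTA4 thus lay above GSTA1 and GSTA2 in fold change, although the 3 genes are neighbours on chromosome 6.

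The RefSeq promoter windows (GRCh38.p14, 250 bases before to 50 after the start) of these 3 alpha-class genes are shown because GSTA1 and GSTA2 moved together and GSTA4 moved the opposite way on TMM. Capitals mark the bases that differ between GSTA1 and GSTA2 when the windows are set side by side from the start, without gaps; GSTA4 is in lower case throughout. The windows lie at chr6:52803767-52804066, chr6:52763426-52763725 and chr6:52995235-52995534, all minus strand.
GSTA1: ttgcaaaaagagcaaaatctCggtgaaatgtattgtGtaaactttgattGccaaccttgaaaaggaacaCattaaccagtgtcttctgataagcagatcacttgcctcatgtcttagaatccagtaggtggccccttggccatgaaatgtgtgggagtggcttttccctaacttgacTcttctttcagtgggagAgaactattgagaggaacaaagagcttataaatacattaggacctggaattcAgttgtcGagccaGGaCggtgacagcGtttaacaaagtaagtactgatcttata
GSTA2: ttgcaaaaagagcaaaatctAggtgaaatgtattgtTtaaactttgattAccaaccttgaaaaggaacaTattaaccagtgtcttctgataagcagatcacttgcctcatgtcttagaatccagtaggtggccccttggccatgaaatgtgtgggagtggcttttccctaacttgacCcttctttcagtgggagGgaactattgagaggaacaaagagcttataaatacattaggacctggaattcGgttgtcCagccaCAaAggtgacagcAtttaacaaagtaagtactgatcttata
GSTA4: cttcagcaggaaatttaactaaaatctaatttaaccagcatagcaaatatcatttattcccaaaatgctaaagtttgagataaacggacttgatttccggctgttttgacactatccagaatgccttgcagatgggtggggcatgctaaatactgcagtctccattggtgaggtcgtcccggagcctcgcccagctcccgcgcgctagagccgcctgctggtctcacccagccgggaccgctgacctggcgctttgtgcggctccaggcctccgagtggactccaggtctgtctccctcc
The windows of GSTA1 and GSTA2 had the same base at 288 of 300 positions and differed at 12, and those of GSTA1 and GSTA4 had the same base at 71 of 300. The likeness describes letters only. RefSeq windows were matched for 78 member symbols, some with several starts.

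Of 8 sulfotransferases tested, 2 rose and 5 fell, or 25% and 62.5% against 35.4% and 29.1% of all genes. On epithelial scaling 2 rose and 1 fell, against 74.3% and 0.741% of all genes. The median log2 fold change of −0.72 on TMM turned to 0.18 on epithelial scaling. SULT1A1, which sulfates phenols and is found in many tissues, was at 24.1, 27.7 and 30.3 CPM with methotrexate alone and 3.11, 5.02 and 3.46 CPM in control, a log2 fold change of 2.82 ± 0.19 (edgeR adjusted p = 2.1e-09). Its neighbour SULT1A2 rose by 1.86 ± 0.19, and 95.3% of its 100-base windows were found in no other gene. SULT2A1 was at 24.1, 23.5 and 23.5 CPM with methotrexate alone and 61.9, 59 and 55.7 CPM in control, a log2 fold change of −1.31 ± 0.10 (edgeR adjusted p = 7e-09). It was the 1 member still called lower on epithelial scaling, at −0.41 ± 0.10 (edgeR adjusted p = 0.0013). SULT2B1, which sulfates cholesterol, and SULT1E1 changed by −1.23 ± 0.28 and −0.77 ± 0.19. SULT1B1 and SULT1C4 were close to the threshold, at −0.80 ± 0.28 and −0.68 ± 0.28, and each lost its call when single libraries were left out. SULT1B1 lost it without control replicate 1 or 2 or methotrexate replicate 2 or 3, at log2 values between −0.77 and −0.69. SULT1C4 lost it without any 1 of the control libraries, methotrexate replicate 1 or 2, or replicate 1 of both agents, at values between −0.78 and −0.49. SULT1C2 was not called (−0.49 ± 0.21, edgeR adjusted p = 0.055), but was without control replicate 3, lactoferrin replicate 2 or 3, or replicate 3 of both agents, at values between −0.64 and −0.50. SULT4A1, a brain form under the filter, had 39 counts with methotrexate alone and 0 elsewhere, at least 6.33-fold higher than in control.

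The receptors, electron donors, cofactor enzymes and pumps around these families were counted over whole lists. Of 16 xenobiotic receptors and partners, 5 rose and 6 fell with methotrexate alone, or 31.2% and 37.5% against 35.4% and 29.1% of all genes. AHR itself was not called on TMM (−0.09) and was called higher on epithelial scaling (0.81). Its targets AHRR, a repressor of the receptor, and TIPARP rose on TMM by 3.33 and 2.06 on the log2 scale, and on epithelial scaling by 4.22 and 2.96. AHRR was at 6.36, 6.51 and 6.82 CPM with methotrexate alone and 0.671, 0.522 and 0.76 CPM in control. The intestinal and hepatic factors HNF4A and FOXA2 and the receptors NR1I2 and NR1I3 fell by 1.10, 1.16, 1.33 and 1.20 on TMM. CDX2 also fell, with an uneven spread, at 139, 141 and 47.4 CPM with methotrexate alone and 249, 266 and 244 CPM in control. On epithelial scaling 10 of the 16 were called higher and 0 lower, against 74.3% and 0.741% of all genes. The promoter window of CYP1A1 (chr15:74725479-74725778, minus strand, GRCh38.p14) is given with the core letters of the AHR response element, GCGTG, in capitals, found at −57 on the strand shown. Searched on both strands, these letters were in 36.5% of all 35116 promoter windows, and a match is not a measured binding site.
CYP1A1: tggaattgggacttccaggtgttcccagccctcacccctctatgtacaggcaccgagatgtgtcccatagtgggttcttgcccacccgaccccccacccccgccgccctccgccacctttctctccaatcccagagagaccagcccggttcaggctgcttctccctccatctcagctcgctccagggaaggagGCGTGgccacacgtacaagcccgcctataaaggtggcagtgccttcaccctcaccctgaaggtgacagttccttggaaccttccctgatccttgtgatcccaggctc

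Among 7 tested P450 electron donors 5 rose and 2 fell on TMM, against 35.4% and 29.1% of all genes. On epithelial scaling 7 rose and 0 fell, against 74.3% and 0.741% of all genes, and the falls of CYB5B and FDX1 turned to called rises of 0.27 and 0.65. CYB5A, cytochrome b5, was at 292, 334 and 330 CPM with methotrexate alone and 47.9, 42.1 and 46.6 CPM in control (log2 2.81), CYB5R3 rose by 1.83 and the P450 reductase POR by 0.52 on TMM. Of 14 cofactor genes 6 rose and 3 fell on TMM, or 42.9% and 21.4%, and 13 rose and 0 fell on epithelial scaling, to be read against the same shares of all genes. GCLM, a subunit of the enzyme that limits glutathione synthesis, rose by 2.17, and UGP2, which makes UDP-glucose, by 1.42, whereas UGDH, the next step to UDP-glucuronic acid, was not called on TMM (−0.10) and was called higher on epithelial scaling (0.80). Of 28 other oxidising and conjugating enzymes 12 rose and 11 fell on TMM, or 42.9% and 39.3% against 35.4% and 29.1% of all genes. On epithelial scaling 20 rose and 1 fell, against 74.3% and 0.741% of all genes. Alcohol dehydrogenase ADH1B was at 871, 1264 and 1240.0 CPM with methotrexate alone and 0.958, 0.281 and 0.0422 CPM in control, aldehyde oxidase AOX1 rose by 5.75 and the microsomal transferase MGST1 by 3.39, and ALDH1A1 fell by 1.12, all on TMM. Of 7 export pumps 0 rose and 5 fell on TMM, or 0% and 71.4% against 35.4% and 29.1% of all genes. Among those that fell were ABCC2 (−1.23) and ABCG2 (−1.17), both known carriers of methotrexate and of conjugates. ABCC2 and ABCG2 were the pumps still called lower on epithelial scaling (−0.33 and −0.27), against 0.741% of all genes. On that scaling 3 others were called higher, against 74.3% of all genes.

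No member was called with lactoferrin alone or with both agents against control. With lactoferrin alone, 0 of 60 members were called, against a background of 0 in each direction, 1 had an unadjusted p under 0.05, and DESeq2 also called 0. The 60 include members near 0 in both groups that passed the filter through the methotrexate libraries, such as GSTM1 with 2 counts with lactoferrin and 1 in control. Fitted on the compared groups alone, 48 of the 60 could be tested for lactoferrin and 51 for both agents, and 0 were called. With both agents against control, 0 of 60 were called, against 0.0299% of all genes higher and 0 lower (0.0359% and 0 on epithelial scaling, also with 0 members), and 4 had an unadjusted p under 0.05. Control libraries are shared by all comparisons with control. The median standard error of a log2 fold change was 0.27 for lactoferrin and 0.25 for both agents, and the 95% interval of the difference lay within 2-fold for 41 and 42 of the 60 members. For the rest the libraries do not show whether a change of that size occurred.

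**Figure D4:**
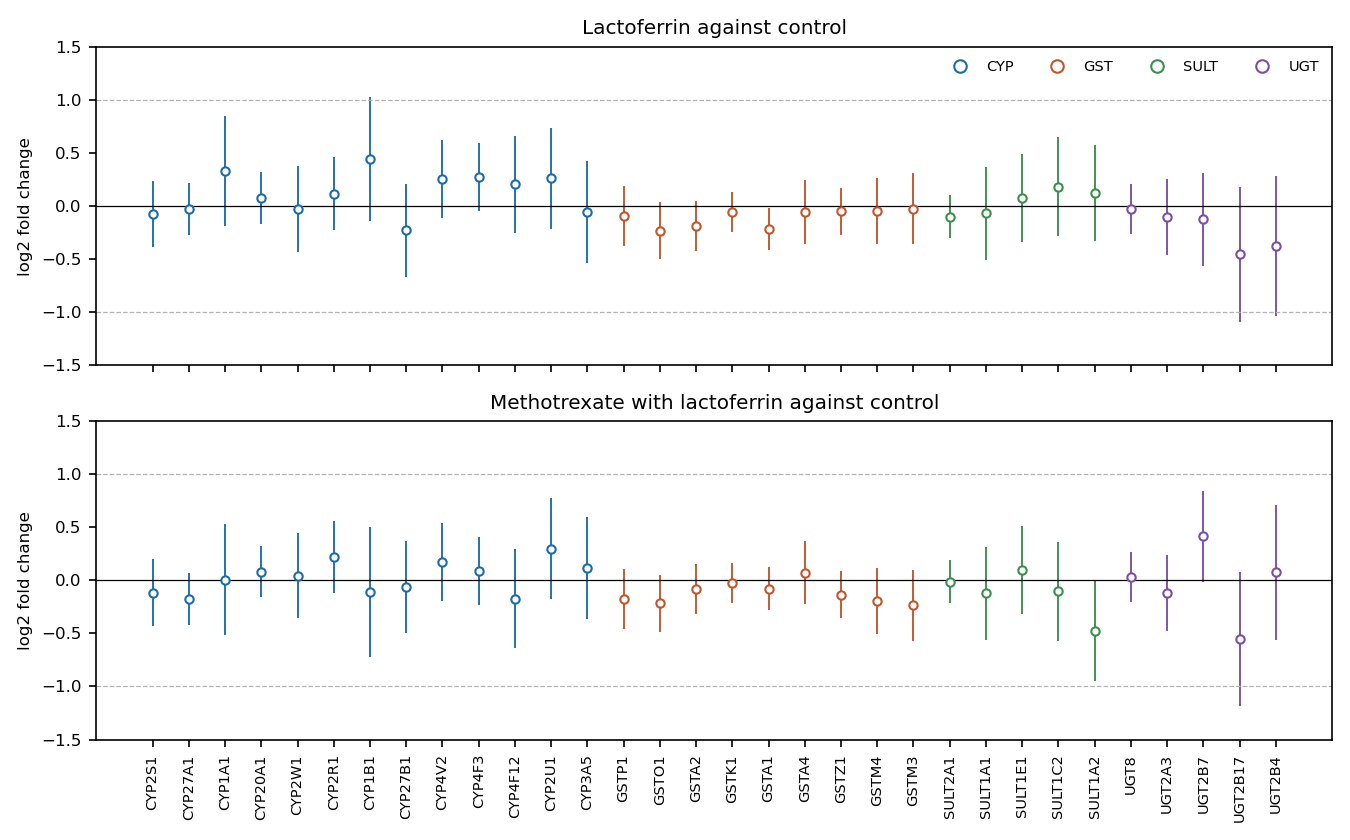
Log2 fold change against control with 95% intervals (bars) for tested members at an average of at least 1 log2 CPM, without the near-absent GSTM1, GSTM2, GSTT1 and CYP4F22, for lactoferrin alone (top) and methotrexate with lactoferrin (bottom); dashed lines mark 2-fold. No member was called in either comparison; with those 4 included, 29 and 31 of 36 members had intervals within 2-fold.

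For the abundant members the intervals were narrow. GSTA1 was at 107, 105 and 102 CPM with lactoferrin alone against 131, 124 and 110 CPM in control, a log2 fold change of −0.22 with a 95% interval of −0.42 to −0.01. It was the 1 member with an unadjusted p under 0.05, chosen here after its value was seen, and its adjusted p by edgeR was 1.00. SULT2A1 had a lactoferrin interval of −0.30 to 0.10 and a combined-treatment interval of −0.21 to 0.19. In the same order, the intervals of UGT8 were −0.26 to 0.21 and −0.20 to 0.27, and those of GSTP1 were −0.37 to 0.19 and −0.46 to 0.11. CYP1A1 varied more, at 65, 35.3 and 41.5 CPM with lactoferrin alone and 39.6, 42 and 31.8 CPM with both agents, and its intervals ran from −0.19 to 0.85 and from −0.52 to 0.53. The 4 members with an unadjusted p under 0.05 for both agents against control, likewise named after their values were seen, were CYP8B1 (37 counts with both agents, 12 in control), CYP11A1 (5 and 19), GSTT1 (3 and 0) and SULT1A2 (90 and 131). CYP11A1 and GSTT1 were high in the methotrexate libraries, and such low counts carry little weight here. The 3 for both agents against lactoferrin were SULT1A2, UGT2B7 and CYP17A1 (21 counts with both agents, 3 with lactoferrin). In that comparison 0 members were called, against 0.0179% of all genes higher and 0 lower (0.0239% and 0 on epithelial scaling, also with 0 members). UGT2B7 was at 4.58, 5.04 and 7.48 CPM with both agents and 3.8, 4.22 and 3.75 CPM with lactoferrin alone, a log2 fold change of 0.54 with a 95% interval of 0.10 to 0.97 and an edgeR adjusted p of 1.00.

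The comparison of both agents with methotrexate alone shares its methotrexate libraries with the one above. Of 60 members, 31 were called higher with both agents, against 28.8% of all genes, and 19 lower, against 34.4%. GSTM1 was at 0 counts with both agents and 4042 with methotrexate alone, at least 625-fold lower, and GSTT1 had 3 against 4102. CYP1B1 was at 0.764, 0.97 and 1.32 CPM with both agents against 38.2, 39.5 and 43.8 CPM with methotrexate alone (−5.31 ± 0.23), and SULT1A1 changed by −2.94 ± 0.19. In the other direction SULT2A1 was at 59.4, 61.6 and 54.3 CPM with both agents and 24.1, 23.5 and 23.5 CPM with methotrexate alone (1.30 ± 0.10), and UGT2B7 and UGT8 were higher by 1.48 ± 0.20 and 1.15 ± 0.11. On epithelial scaling 5 members were called higher, CYP1A1, SULT2A1, UGT1A6, UGT2B7 and UGT8, against 1.3% of all genes, and 26 lower, against 72%. Calls of CYP2J2, CYP4F2, CYP8B1, GSTM3, SULT1C4 and UGT2B11 in this comparison were lost when single libraries were left out (edgeR adjusted p between 0.050 and 0.14). Adipocyte and fibroblast marker sums differed between the same libraries as given above, and their part was not tested.

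The difference of both agents from lactoferrin was set against that of methotrexate from control in a test of interaction, which rests on the same 3 methotrexate libraries. It was called higher for 22 of 60 members, against 20.6% of all genes, and lower for 15, against 26.1%. For SULT2A1 the interaction was 1.40 ± 0.14 (edgeR adjusted p = 5.8e-07), from 0.09 for both agents against lactoferrin and −1.31 for methotrexate against control. For CYP1B1 it was −5.76 ± 0.36 (edgeR adjusted p = 3.4e-09), from −0.55 and 5.20, and for SULT1A1 −2.87 ± 0.28. Of 10 UGT genes 7 had a higher and 0 a lower interaction, and of 14 GST genes 4 and 6. On epithelial scaling 2 members were called higher, SULT2A1 and UGT2B7, against 0.496% of all genes, and 22 lower, against 62%. The interaction calls of GSTT1 and CYP4F11 were lost without lactoferrin replicate 3, where their adjusted p by edgeR was 1.00; the 1 lactoferrin count of each gene was in that library. The interaction calls of CYP11A1, CYP1A1, CYP4F3, GSTA4, SULT1E1, UGT1A1 and UGT2B10 were also lost when single libraries were left out (edgeR adjusted p between 0.051 and 0.079).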

How the data were processed

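Gene-level read counts of 12 libraries of total RNA, sequenced paired-end, were used as deposited. The authors' raw counts cover 48162 genes; per the submitters' processing notes, reads were handled with CASAVA and STAR on hg19 and tested with DESeq2. No label states the counting program or its use of strand, so reads of overlapping genes may be shared. Members and gene lists were chosen with earlier results of these data known.

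Counts were analysed with edgeR 4.0.16 (R 4.3.3): genes filtered by filterByExpr on the 4 groups (16733 kept), TMM scaling, and the quasi-likelihood F test on 1 mean per group over all 12 libraries, with Benjamini-Hochberg adjustment over all genes tested and calls under 0.05. The scripts were tested on simulated data. The common biological coefficient of variation was 12.9%. Epithelial scaling set library factors by the median ratio of 33 brush border and tight junction genes. CPM are after TMM scaling; per-kilobase levels use the deposited gene lengths. Other alternatives were DESeq2 1.42.0, its size factors, no filter, a replicate block, the compared groups alone, the submitters' cut-offs and leaving out each library. Replicates differed beyond counting noise, with the lowest chi-square per degree of freedom at 7.43. Sequence uniqueness used GENCODE transcripts and promoters came from RefSeq. Named members were the 10 with the highest control level, up to 10 called rises and falls per comparison with an average of at least 1 log2 CPM, set intestinal and inducible forms, and members at 0 in 1 group and clearly counted in another; members outside these are named to account for all. The values of 1 member and of 1 listed factor are not reported here.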

Additional observations from a re-analysis of the deposited data

Results flagged for a closer look

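The 20 members listed here had the largest positive and negative interaction values among called members with an average of at least 1 log2 CPM. For them the difference between libraries labelled with and without methotrexate was not the same with and without lactoferrin (edgeR interaction test, adjusted p under 0.05). A positive log2 value means a higher difference with lactoferrin present. The list does not hold every called member at this level, and GSTA4 is among those left out. The largest positive values belonged to UGT2B7 (1.60), UGT2B4 (1.45), SULT2A1 (1.40), CYP27B1 (1.25), UGT2A3 (1.25), UGT8 (1.17), GSTA1 (1.16), GSTA2 (1.14), CYP2W1 (1.04) and CYP1A1 (1.03). On epithelial scaling SULT2A1 and UGT2B7 remained called among these, at 0.54 and 0.75. The call of CYP1A1 was lost without control replicate 3, lactoferrin replicate 2 or lactoferrin replicate 3 (edgeR adjusted p = 0.064, 0.058 and 0.059).

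The largest negative values belonged to GSTM1 (−13.62), GSTT1 (−11.40), GSTM2 (−9.17), CYP1B1 (−5.76), SULT1A1 (−2.87), CYP4F12 (−2.83), SULT1A2 (−2.46), CYP4V2 (−1.67), CYP2U1 (−1.32) and GSTZ1 (−0.68). The fitted values of GSTM1 and GSTT1 depend on the prior count, since they had at most 3 counts in each group other than methotrexate alone. The summed adipocyte and fibroblast markers were high in the same 3 methotrexate libraries, and the labels do not account for them, so the identity of these libraries is in doubt. An effect of the drug or of lactoferrin on it cannot be told apart from what else sets these libraries apart.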

How the results depend on the processing

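Scaling was the choice that mattered most. With epithelial scaling, members called lower with methotrexate against control numbered 1 in place of 29, against 0.741% of all genes. Those higher with both agents against methotrexate numbered 5 in place of 31, against 1.3%. Those with a higher interaction numbered 2 in place of 22, against 0.496%. Under the submitters' cut-offs (over 2-fold, adjusted p under 0.01) these were 16, 16 and 10 of 60 members. At those cut-offs 918, 902 and 714 of all 16733 genes were called in the same directions. Epithelial scaling reversed, for methotrexate against control, CYP20A1 (0.54), CYP3A5 (0.053), CYP4F3 (0.11), GSTO1 (0.17), GSTP1 (0.037), SULT1B1 (0.093), SULT1C4 (0.22), SULT1E1 (0.14) and UGT2B15 (0.052). For both agents against methotrexate it reversed CYP20A1 (−0.40), CYP2J2 (−0.033), GSTO1 (−0.34), GSTP1 (−0.17) and SULT1C4 (−0.017), and for the interaction CYP20A1 (−0.50), CYP4F3 (−0.26), GSTO1 (−0.12), GSTP1 (−0.093) and SULT1E1 (−0.078). The cause was not tested. All other counts stayed within 1.5 times. Leaving out 1 library gave 18 to 20 higher and 25 to 30 lower for methotrexate against control, 27 to 31 and 18 to 20 for both agents against methotrexate, 19 to 25 and 13 to 16 for the interaction, and 0 to 0 for the other comparisons. Over all 16965 to 17407 genes tested, the first ranges were 5589 to 6288 higher and 4341 to 5193 lower. The second were 4375 to 4915 and 5406 to 5980, and those of the interaction 2963 to 3665 and 4018 to 4551. In the other comparisons at most 8 genes were called. With the replicate number as a block, the counts were 19 and 30, 30 and 19, and 23 and 15. Over all 16733 genes they were 5728 and 4642, 4585 and 5574, and 3155 and 4138. Same-numbered libraries did not deviate together (correlations −0.22 to 0.12, 2 of 18 over 0.1), so the numbers were not taken as pairs. The interaction was not refitted on the compared groups alone, since it holds all 4. Low counts limit the scarce members most.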
